A study of Oryza sativa with 4 samples.

Results

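The core histone genes of rice were followed here as 42 loci, chosen by locus identifier: 10 of histone H4, 8 of histone H3, 2 of the H3 variant H3.3, 9 of H2B and 13 of H2A, the last including H2A.X and H2A.Z forms. The count table of 91960 features held 41 of them. RNA was sequenced from 4 seedling libraries of Oryza sativa (japonica), 2 of the mutant line bta1-1 and 2 of the wild type line SN9816 (WT), all 7 days old and raised with 14 h light and 10 h dark. No source used here gives the lesion in bta1-1, its genetic background or the number of plants per library, so the mutation and other differences between the lines cannot be told apart. BTA1 is known as LAZY1 (OS11G0490600), a gene that promotes shoot gravitropism. Its transcript stood at 4.20 and 4.82 CPM (read counts scaled to library size, with TMM factors) in bta1-1 libraries 1 and 2, against 36.9 and 32.2 CPM in WT libraries 1 and 2, and the log2 fold change was -2.93 with an SE of 0.26 (adjusted p = 0.000445 by the quasi-likelihood test of edgeR).

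Core histones are the small basic proteins around which DNA is wrapped. H3 with H4, and H2A with H2B, assemble into the octamer of the nucleosome. Most H2A, H2B, H3 and H4 genes of plants are transcribed mainly during S phase, when replicated DNA has to be packaged, and their messages are therefore abundant where cells divide. Replacement variants such as H3.3 and H2A.Z are made and deposited outside S phase as well. H2A.X is the form phosphorylated at DNA breaks.

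The rule named loci and families, and no value was used to pick a locus. The group was proposed because H3 and H4 loci had stood higher in bta1-1 in an earlier analysis of the same libraries. The difference between bta1-1 and WT is therefore described here and supports nothing. Of the 41 loci in the table, 39 passed the filter on low counts. The H3 locus OS11G0155900 had 0 reads in every library, where a count of 0 allows up to 3 reads, and the H3.3 locus OS06G0130900 had 4 and 7 reads in bta1-1 against 12 and 4 in WT. The H3 locus OS06G0159501 was not analysed here. A gene counts as called where its adjusted p is under 0.05 in an edgeR fit over all 24396 genes tested, with no fold threshold.

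Most core histone loci were higher in bta1-1, and at a few, some of them abundant, the values of the lines overlapped. Of the 39 tested loci, 25 were called higher, 0 were called lower and 14 were not called, in a comparison where 2.77% of all genes tested were called higher and 2.64% lower. At an unadjusted p under 0.05, 33 stood higher and 0 lower by edgeR, where 9.68% of all genes tested stood higher and 8.16% lower. By DESeq2 it was 32 higher and 0 lower, where 8.21% of all genes stood higher and 7.27% lower. Log2 fold changes ranged from -0.35 to 2.95 with a median of 1.47, beside a median of -0.012 over all genes tested. Both bta1-1 libraries lay above both WT libraries at 34 loci and below both at 1, while the groups overlapped at 4. Over all genes tested, 23.7% were separated in the higher direction and 23.2% in the lower. Other tests on the same table gave 30 loci called higher by DESeq2 (4.21% of all genes), 24 by limma on log2(FPKM + 1) (2.64%), 23 by limma on log2(FPKM + 0.1) (2.89%) and 0 by limma on log2(FPKM + 1) over every gene with a value (0.127%). In that last fit 30 loci stood higher and 0 lower at an unadjusted p under 0.05, beside 6.26% of all genes higher and 5.59% lower. Nothing is read from these counts, since the same contrast proposed the group. In reads, the listed loci together took 0.358% and 0.569% of bta1-1 libraries 1 and 2, against 0.222% and 0.223% of WT libraries 1 and 2. The shares in WT were close to each other, and both bta1-1 libraries lay above them, library 2 the higher.

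**Figure D1:**
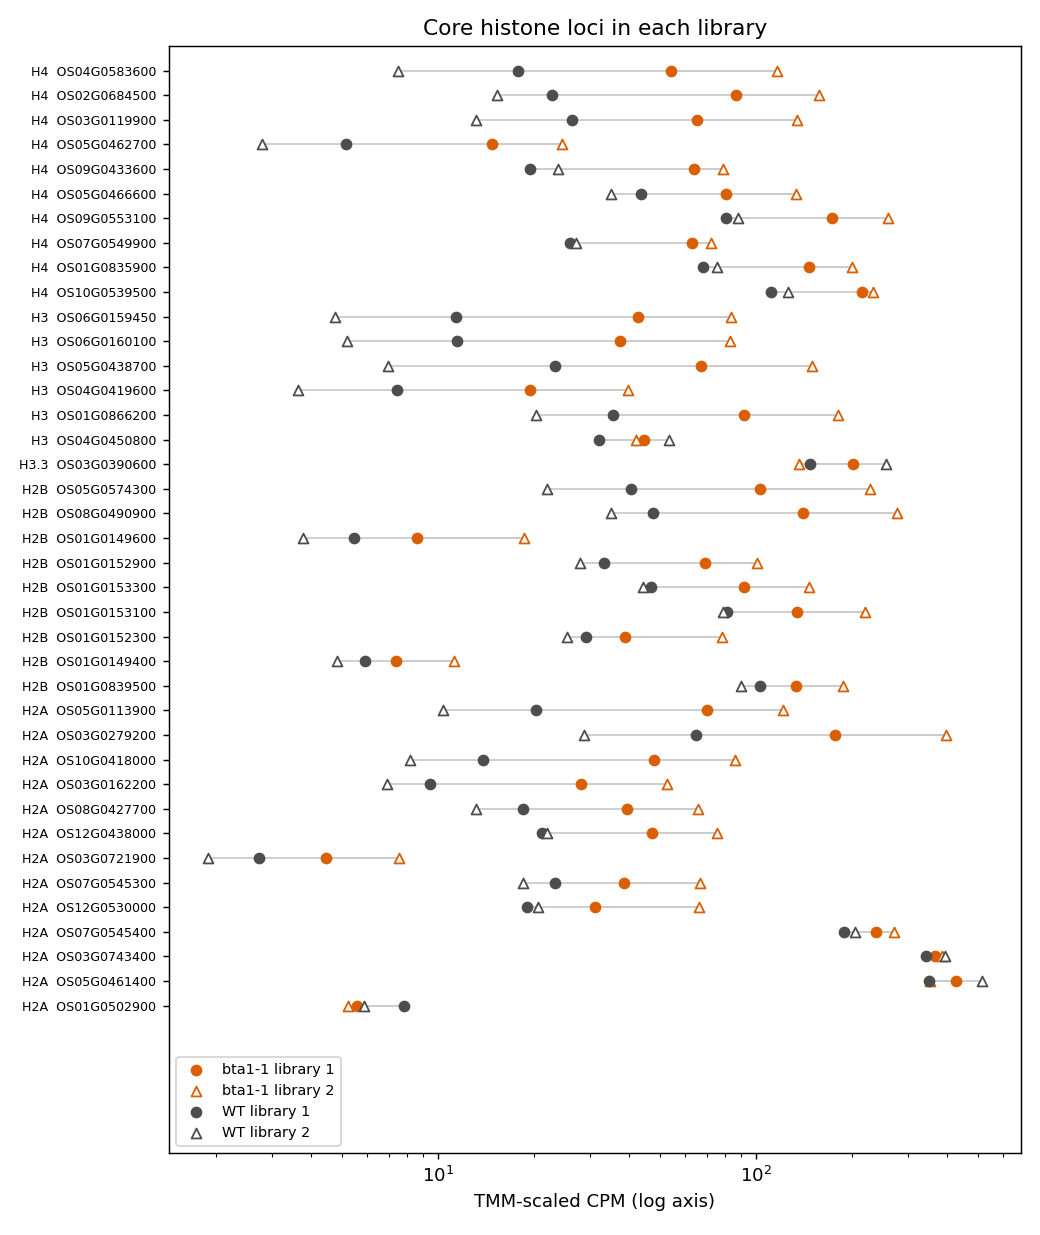
TMM-scaled CPM (log axis) of the 39 tested loci, one row per locus by family, with bta1-1 in orange and WT in grey, circles for library 1 and triangles for library 2. The 4 loci where the lines overlap are OS04G0450800, the H3.3 locus OS03G0390600, OS03G0743400 and OS05G0461400.

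The libraries held 17332067 and 17365812 reads (bta1-1) and 20334851 and 15093108 reads (WT). Loci of a histone family can be near-identical, which was not checked, and no source used here says how reads matching several copies were counted. The split among copies is therefore uncertain, and family sums are given beside single loci. In seedling RNA, more dividing cells and more histone RNA per cell cannot be told apart. Genes of mitosis moved with the histones: all 3 of 3 listed genes (CDKB2-1, CYCB2-1 and CYCB2-2, a list chosen with earlier results known) were called higher, beside 2.77% of all genes tested, with a summed level of 31.6 and 68.8 CPM in bta1-1 against 13.0 and 6.91 CPM in WT. The meristem genes OSH1 and OSH15 together reached at most 0.379 CPM in bta1-1 and 0.0698 CPM in WT, and OSH1 had 0 and 2 reads in bta1-1 against 0 and 0 reads in WT. The other locus of the meristem list, listed as MOC1, whose symbol the RefSeq gene table lacks, overlapped between the lines. It had 4 and 3 reads in bta1-1 against 7 and 3 reads in WT. No meristem locus passed the filter on low counts, and no direction is read from them. Of 7 listed root genes 4 were tested and 0 were called by edgeR. At an unadjusted p under 0.05 it was also 0, there and by DESeq2 and limma. Summed root levels were 641 and 844 CPM in bta1-1 against 1020 and 687 CPM in WT. Most of that sum came from NAS1 and NAS2. NAS1 had 326 and 487 CPM in bta1-1 against 563 and 300 CPM in WT. NAS2 had 286 and 333 CPM in bta1-1 against 423 and 362 CPM in WT. LSI2 and NRT2.1 had at most 1 read in any library, and AMT1-2 was at 0 in every library. The leaf gene RCA, the activase of Rubisco, stood at 2626 and 1189 CPM in bta1-1 against 1662 and 1950 CPM in WT (log2 fold change 0.079). The other 4 loci of the leaf list, listed as RBCS2 to RBCS5, have symbols that the RefSeq gene table lacks. They had log2 fold changes of -1.04 to -0.24 and were not called. All 4 were lower in bta1-1 library 2 than in library 1 and higher in WT library 2 than in library 1. The most abundant, RBCS3, had 3923 and 1241 CPM in bta1-1 against 3064 and 5771 CPM in WT. The part of dividing cells or of organ make-up in the histone values was not tested.

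Histone H4, the most conserved of the core histones, is encoded by 10 listed loci that were all read in every library and all lay higher in both bta1-1 libraries than in either WT library. Of these 9 were called, at log2 fold changes of 1.27 to 2.74, and the family median was 1.58. OS10G0539500 was the H4 locus with the highest mean level over the 4 libraries. It stood at 215 and 233 CPM in bta1-1 libraries 1 and 2 against 111 and 126 CPM in WT, with the smallest log2 fold change of the family (0.91, SE 0.25), and was not called. OS09G0553100 had 173 and 260 CPM in bta1-1 against 80.6 and 87.5 CPM in WT. OS01G0835900 had 147 and 200 CPM in bta1-1 against 68.1 and 75.6 CPM in WT. In these 3 abundant loci the WT libraries lay close together and the change was 1.88-fold to 2.58-fold.

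The largest change among H4 loci was at OS04G0583600, with 54.2 and 117 CPM in bta1-1 libraries 1 and 2 against 17.8 and 7.47 CPM in WT libraries 1 and 2 (log2 fold change 2.74, SE 0.48; 2.12 without bta1-1 library 2 and 3.50 without WT library 1). OS02G0684500 had 86.8 and 158 CPM in bta1-1 against 22.8 and 15.3 CPM in WT. OS03G0119900 had 65.4 and 134 CPM in bta1-1 against 26.3 and 13.1 CPM in WT. At these loci the replicates of each line also stood apart, with bta1-1 library 2 above library 1 and WT library 1 above library 2. The remaining 4 H4 loci, OS05G0462700, OS05G0466600, OS07G0549900 and OS09G0433600, changed by 2.54-fold to 4.90-fold. OS05G0462700 was the lowest of the 10 in level, at 24.1 and 44.3 FPKM (a level per length) in bta1-1 against 8.92 and 4.49 FPKM in WT.

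The loci made up different shares of the H4 message in the lines. OS10G0539500 held 23.3% and 17.3% of the summed H4 FPKM in bta1-1, against 28.0% and 32.3% in WT, and OS02G0684500 held 9.98% and 12.4% in bta1-1 against 6.06% and 4.14% in WT. Among the called H4 loci, OS01G0835900 and OS09G0553100 lost the call without bta1-1 library 2, without WT library 1 or without WT library 2. Their log2 fold changes in those fits were 1.06, 1.19 and 1.35 for OS01G0835900, and 1.08, 1.30 and 1.43 for OS09G0553100. OS05G0466600 lost it without WT library 2, at 1.30. The other 6 were called in each of the 4 fits that left out 1 library.

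Histone H3, whose tail carries many of the methyl and acetyl marks of chromatin, had 6 tested loci beside H3.3. Of these 5 were called higher, at log2 fold changes of 2.28 to 2.95, and the median of the 6 was 2.61. OS01G0866200, the H3 locus with the highest mean level, stood at 91.9 and 180 CPM in bta1-1 libraries 1 and 2 against 35.4 and 20.4 CPM in WT. OS05G0438700 had 67.2 and 150 CPM in bta1-1 against 23.4 and 6.98 CPM in WT. OS06G0159450, with the largest log2 fold change of all 39 loci (2.95, SE 0.46), had 42.7 and 83.6 CPM in bta1-1 against 11.4 and 4.75 CPM in WT. In all 3 the lines did not overlap, bta1-1 library 2 was above library 1, and WT library 1 was above library 2.

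OS06G0160100 lies close to OS06G0159450 in the locus numbering and had nearly the same values, 37.5 and 82.9 CPM in bta1-1 against 11.5 and 5.17 CPM in WT. How reads matching both loci were counted is not known. The long locus OS04G0419600 (1465 bases) had 19.4 and 39.5 CPM in bta1-1 against 7.45 and 3.63 CPM in WT. OS05G0438700 lost its call without bta1-1 library 1 (log2 fold change 3.29) and without bta1-1 library 2 (2.17), and the other 4 were called in each fit without 1 library. Without WT library 1, OS05G0438700 stood at 3.95, OS06G0159450 at 3.72, OS06G0160100 at 3.53 and OS04G0419600 at 3.01, so that OS05G0438700 had the largest change of all. Without bta1-1 library 2, OS06G0159450 was at 2.42 and OS06G0160100 at 2.19, and without WT library 2 OS05G0438700 was at 2.22.

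A locus listed as H3 behaved unlike the rest of its list. Whether it encodes H3 or H3.3 was not checked, since no sequences were used. The H3 sum and the H3.3 share take it as H3, as listed. OS04G0450800, the longest of the listed loci at 1583 bases, stood at 44.4 and 41.9 CPM in bta1-1 libraries 1 and 2 against 32.1 and 53.3 CPM in WT (log2 fold change 0.019, SE 0.28), so that both bta1-1 values lay between those of WT. Leaving out bta1-1 library 1 gave -0.026, and leaving out WT library 1 gave -0.30. It held 7.35% and 3.50% of the summed FPKM of H3 loci other than H3.3 in bta1-1, against 14.1% and 36.7% in WT.

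The replacement variant H3.3 takes the place of H3 in transcribed chromatin outside replication. Reads at its 2 listed loci came almost wholly from OS03G0390600. This locus stood at 203 and 137 CPM in bta1-1 libraries 1 and 2 against 147 and 257 CPM in WT libraries 1 and 2, with -0.25 as its log2 fold change (SE 0.34), and was not called. The lines overlapped, and the sign turned when a library was left out (0.033 without bta1-1 library 2, 0.20 without WT library 2). Per length it was the most abundant of the H3 and H3.3 loci in both lines on average, at 332 and 248 FPKM in bta1-1 and 257 and 416 FPKM in WT. The second H3.3 locus, OS06G0130900, stayed under 1 FPKM in each library.

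The make-up of the H3 message differed as well. H3.3 took 40.1% of all reads at H3 and H3.3 loci in bta1-1 library 1 (95% exact Clopper-Pearson interval 39.0% to 41.1%) and 19.2% in bta1-1 library 2 (18.5% to 19.9%). In WT library 1 it took 55.0% (53.7% to 56.3%) and in WT library 2 73.2% (72.0% to 74.4%). The intervals cover counting error only. Both bta1-1 shares lay below both WT shares, and the libraries of a line differed by 20.9 (bta1-1) and 18.2 (WT) percentage points, more than the 14.9 points between the nearest libraries of the lines. With 2 libraries against 2, the smallest p an exact permutation test could give is 0.333, and no test was made.

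**Figure D2:**
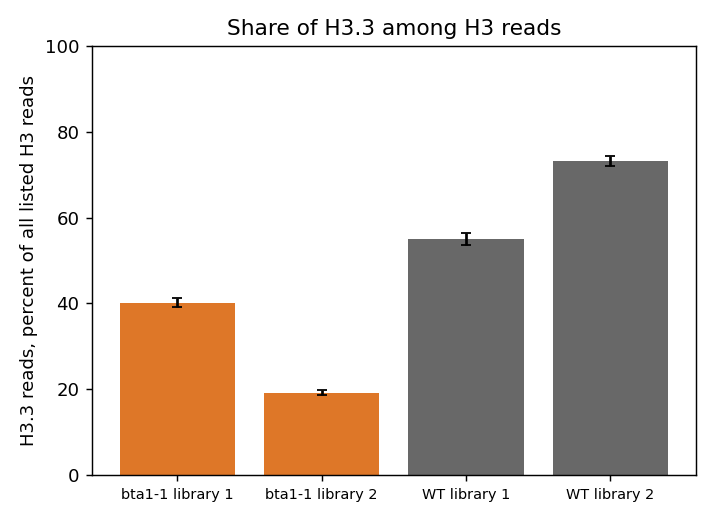
Reads at the 2 H3.3 loci as a percentage of reads at all listed H3 and H3.3 loci in each library, with exact 95% binomial intervals for counting error. The bta1-1 libraries sit at 40.1% and 19.2%, below the WT libraries at 55.0% and 73.2%.

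Histone H2B, the partner of H2A, had 9 loci, and each lay higher in both bta1-1 libraries than in either WT library. Of these 4 were called, with a family median log2 fold change of 1.39. OS05G0574300 changed the most, with 103 and 228 CPM in bta1-1 libraries 1 and 2 against 40.5 and 22.0 CPM in WT (log2 fold change 2.40, SE 0.44; 1.75 without bta1-1 library 2). OS08G0490900 had 141 and 277 CPM in bta1-1 against 47.6 and 35.0 CPM in WT (log2 fold change 2.34, SE 0.37). Both loci lie away from chromosome 1, which carries the other 7, and the 7 had smaller log2 fold changes, of 0.74 to 1.56.

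Of the chromosome 1 loci, 6 have neighbouring identifiers, from OS01G0149400 to OS01G0153300. OS01G0153100 was the most abundant of them, with 134 and 220 CPM in bta1-1 against 81.3 and 78.9 CPM in WT (log2 fold change 1.15, SE 0.30), and was not called. OS01G0152900 had 69.2 and 101 CPM in bta1-1 against 33.2 and 27.9 CPM in WT, and OS01G0153300 had 91.6 and 146 CPM in bta1-1 against 46.9 and 44.0 CPM in WT. These 2 were called, and neither stayed called throughout. OS01G0152900 lost its call without WT library 2 (log2 fold change 1.36), and OS01G0153300 without WT library 1 (1.43) or WT library 2 (1.34).

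The 3 others of the group were not called. OS01G0152300 had 38.7 and 78.4 CPM in bta1-1 against 29.2 and 25.4 CPM in WT. OS01G0149600 had 8.57 and 18.7 CPM in bta1-1 against 5.43 and 3.77 CPM in WT, and the short locus OS01G0149400 (270 bases) had 7.37 and 11.3 CPM in bta1-1 against 5.91 and 4.82 CPM in WT. Without bta1-1 library 1, the lower of the mutant libraries, OS01G0149600, OS01G0152300 and OS01G0153100 were called, at log2 fold changes of 2.01, 1.52 and 1.46. Without bta1-1 library 2, OS01G0149600 stood at 0.92. Among 21 tested genes of other kinds with identifiers inside the same stretch, 2 were called higher and 2 lower. Of all genes tested, 2.77% were called higher and 2.64% lower. Log2 fold changes of the 21 ranged from -1.47 to 8.002, with a median of 0.33. Whether this stretch differs from the rest of the genome was not tested.

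The seventh H2B locus of chromosome 1, OS01G0839500, had the highest mean H2B level over the 4 libraries and the smallest change of the family. It stood at 134 and 188 CPM in bta1-1 against 103 and 89.9 CPM in WT (log2 fold change 0.74, SE 0.27) and was not called. It held 19.9% and 16.2% of the summed H2B FPKM in bta1-1, against 27.7% and 28.6% in WT.

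Histone H2A was the most divided family. Of 13 tested loci 7 were called higher, at log2 fold changes of 1.32 to 2.63, and 6 were not called. The sources used here do not say which of the 13 encode H2A.X or H2A.Z, so no locus is given a variant name. The largest change was at OS05G0113900, with 70.2 and 121 CPM in bta1-1 libraries 1 and 2 against 20.3 and 10.4 CPM in WT (log2 fold change 2.63, SE 0.39). OS03G0279200 had 177 and 395 CPM in bta1-1 against 64.9 and 28.8 CPM in WT (log2 fold change 2.61, SE 0.49; 1.94 without bta1-1 library 2 and 3.299 without WT library 1), and OS10G0418000 had 47.9 and 85.7 CPM in bta1-1 against 13.9 and 8.17 CPM in WT. In these 3 loci even the lower bta1-1 library was at more than 2 times the higher WT library.

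OS03G0162200 (4.91-fold), OS08G0427700 (3.32-fold), OS12G0438000 (2.83-fold) and OS07G0545300 (2.50-fold) were the other called loci. OS07G0545300 lost its call without bta1-1 library 2 (log2 fold change 0.90) and without WT library 2 (1.17), and OS08G0427700 without WT library 2 (1.51). Uncalled although separated were OS12G0530000, with 31.3 and 66.4 CPM in bta1-1 against 19.0 and 20.6 CPM in WT, and the low OS03G0721900, with 4.43 and 7.53 CPM in bta1-1 against 2.74 and 1.88 CPM in WT. Both were called without bta1-1 library 1, at log2 fold changes of 1.74 and 1.69, and OS12G0530000 stood at 0.69 without bta1-1 library 2.

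The 3 H2A loci with the highest mean FPKM over the 4 libraries were not called. In bta1-1 alone the order differed, since the called locus OS03G0279200 had 226 and 559 FPKM in bta1-1 libraries 1 and 2 against 88.2 and 36.3 FPKM in WT, and was the highest H2A locus in bta1-1 library 2. OS05G0461400 stood at 425 and 352 CPM in bta1-1 libraries 1 and 2 against 350 and 513 CPM in WT (log2 fold change -0.15, SE 0.32). OS03G0743400 had 366 and 385 CPM in bta1-1 against 343 and 392 CPM in WT (log2 fold change 0.031, SE 0.28). OS07G0545400 had 239 and 272 CPM in bta1-1 against 189 and 205 CPM in WT (log2 fold change 0.37, SE 0.26). The lines overlapped at OS05G0461400 and OS03G0743400, and at OS07G0545400 both bta1-1 values were higher, by 1.29-fold in the fit. The sign turned for OS05G0461400 without bta1-1 library 2 (0.010) or WT library 2 (0.15), and for OS03G0743400 without WT library 1 (-0.065).

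Together these 3 held 64.9% and 49.3% of the summed H2A FPKM in bta1-1 libraries 1 and 2, against 78.7% and 87.0% in WT libraries 1 and 2. Their sum was 1146 and 1279 FPKM in bta1-1 against 1032 and 1173 FPKM in WT, while the other 10 H2A loci summed to 620 and 1315 FPKM in bta1-1 against 279 and 176 FPKM in WT. Of those 10, OS03G0279200 alone held 12.8% and 21.5% of the summed H2A FPKM in bta1-1 against 6.73% and 2.70% in WT. OS07G0545400 and OS07G0545300 follow each other directly in the locus numbering of the table, yet OS07G0545300 had 38.4 and 66.6 CPM in bta1-1 against 23.4 and 18.5 CPM in WT. The 1 locus below in both mutant libraries was OS01G0502900, the short H2A locus of 396 bases, at 5.57 and 5.20 CPM in bta1-1 against 7.83 and 5.86 CPM in WT (log2 fold change -0.35, SE 0.33, not called).

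**Figure D3:**
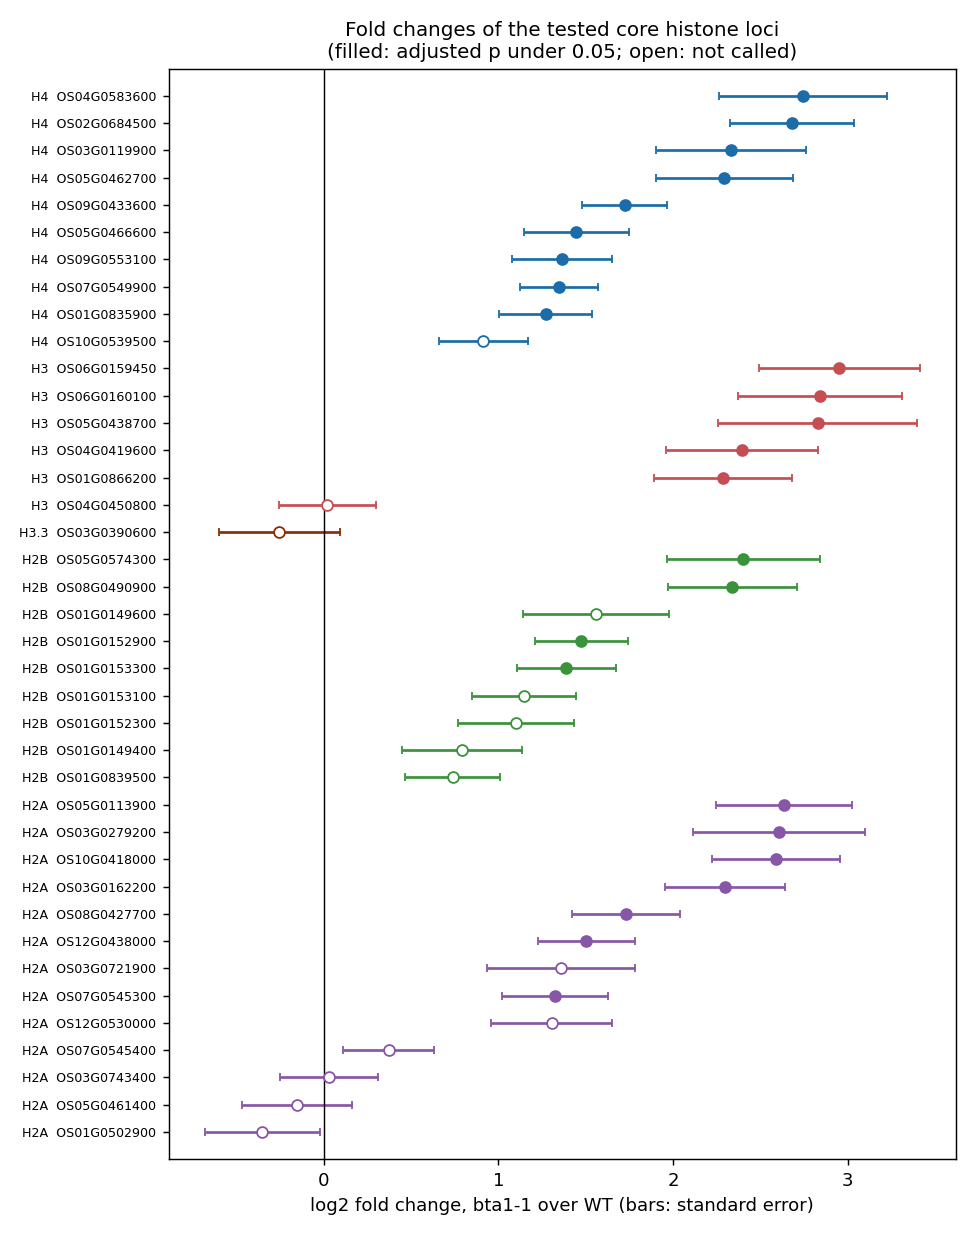
Log2 fold change (bta1-1 over WT, with its standard error) of the 39 tested loci by family, filled where the adjusted p was under 0.05 and open where not. H4 and H2B loci all lie above 0, while H3 and H2A each hold loci near 0 (OS04G0450800 at 0.019, OS03G0743400 at 0.031).

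A family sum does not depend on how reads were split among the listed copies, but reads discarded or given to copies outside the list are not in it. H4 loci together averaged 1188 ± 316 CPM in bta1-1 and 417 ± 5.02 CPM in WT (SD, n = 2 each), and the log2 fold change was 1.51 (SE 0.34). H3 loci other than H3.3 averaged 441 ± 195 CPM in bta1-1 and 108 ± 19.1 CPM in WT (2.03, SE 0.37), the largest change of a family. H2B averaged 998 ± 383 CPM in bta1-1 and 362 ± 43.5 CPM in WT (1.46, SE 0.37). H2A averaged 1736 ± 305 CPM in bta1-1 and 1165 ± 115 CPM in WT (0.58, SE 0.35), and H3.3 averaged 170 ± 46.4 CPM in bta1-1 and 203 ± 77.4 CPM in WT (-0.25, SE 0.34). The sums of H4, H3, H2B and H2A did not overlap between the lines and the sum of H3.3 did. The spread between the bta1-1 libraries was wider than that between the WT libraries for those 4 families. Of the 5 sums, those of H4 and H3 were called in a table where 2.68% of features were called higher.

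Calls on the sums depended on the libraries used. That of H4 was lost without bta1-1 library 2 (log2 fold change 1.24), without WT library 1 (1.51) and without WT library 2 (1.50), and that of H3 without WT library 2 (1.86). The H2B sum was called without bta1-1 library 1 (1.81). Differences between the families were not tested.

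**Figure D4:**
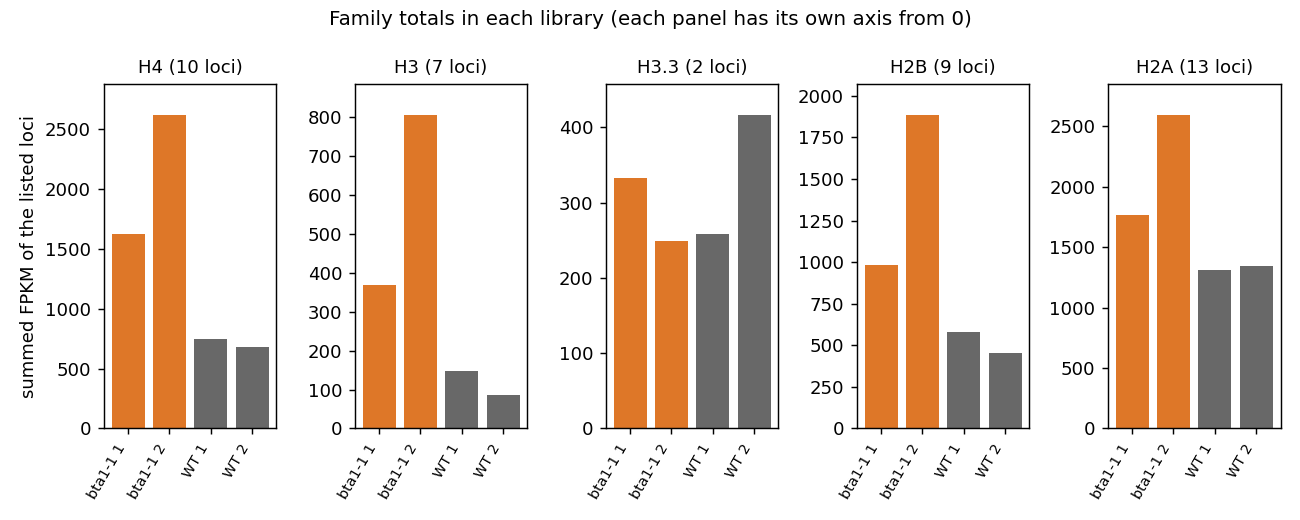
Summed FPKM of the listed loci of each family in each library, bta1-1 in orange and WT in grey, on separate axes that start at 0. H4, H3, H2B and H2A are higher in both bta1-1 libraries, and H3.3 overlaps between the lines.

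The balance of the families per length also differed. Summed H2A was 1.80 and 1.38 times summed H2B in bta1-1 libraries 1 and 2, against 2.26 and 2.97 times in WT libraries 1 and 2, on the FPKM scale. Summed H4 was 0.921 and 1.01 times summed H2A in bta1-1, against 0.570 and 0.505 times in WT. H4 was 2.32 and 2.49 times all H3 with H3.3 in bta1-1, against 1.84 and 1.35 times in WT. These 3 ratios did not overlap between the lines. For H2A over H2B and for H4 over all H3, the WT libraries lay further apart than the nearest libraries of the lines. The ratios rest on the contrast that proposed the group, and no test was made. H4 over H2B did overlap, at 1.65 and 1.39 in bta1-1 against 1.29 and 1.50 in WT.

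Differences between replicates of 1 line do not use the contrast that proposed the group, but they come from the same libraries. Their crossed direction, library 2 minus 1 in bta1-1 and library 1 minus 2 in WT, was chosen after seeing the data. Within bta1-1, 35 of 39 loci were higher in library 2 than in library 1, as were 13698 of all 24396 genes tested. The median difference was 0.73 (log2 CPM), beside a median of 0.069 over all genes tested. Within WT, 27 of 39 were higher in library 1 than in library 2, as were 12215 of the 24396 genes. The median difference in WT was 0.33, beside 0.00098 over all genes tested. By family, the medians in bta1-1 were 0.65 for H4, 0.99 for H3, 0.71 for H2B and 0.73 for H2A, and in WT 0.13, 1.01, 0.24 and 0.39 in the same order. Against the list in both lines went 3 loci. They were the H3.3 locus, at -0.56 in bta1-1 and -0.80 in WT, the H2A locus OS05G0461400, at -0.27 in bta1-1 and -0.55 in WT, and the H3 locus OS04G0450800, at -0.083 in bta1-1 and -0.72 in WT.

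Loci that differed more between the WT libraries also differed more between the bta1-1 libraries. Across the 39 loci, Pearson's r between the differences was 0.79 and Spearman's rho 0.81. Loci share their libraries and are not independent, and the same relation over all 24396 genes had r = 0.43. The loci of H3 at the upper end, such as OS05G0438700 with 1.67 in WT and 1.15 in bta1-1, were among those with the largest fold changes between the lines. Each line has 2 libraries, so no test was made.

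**Figure D5:**
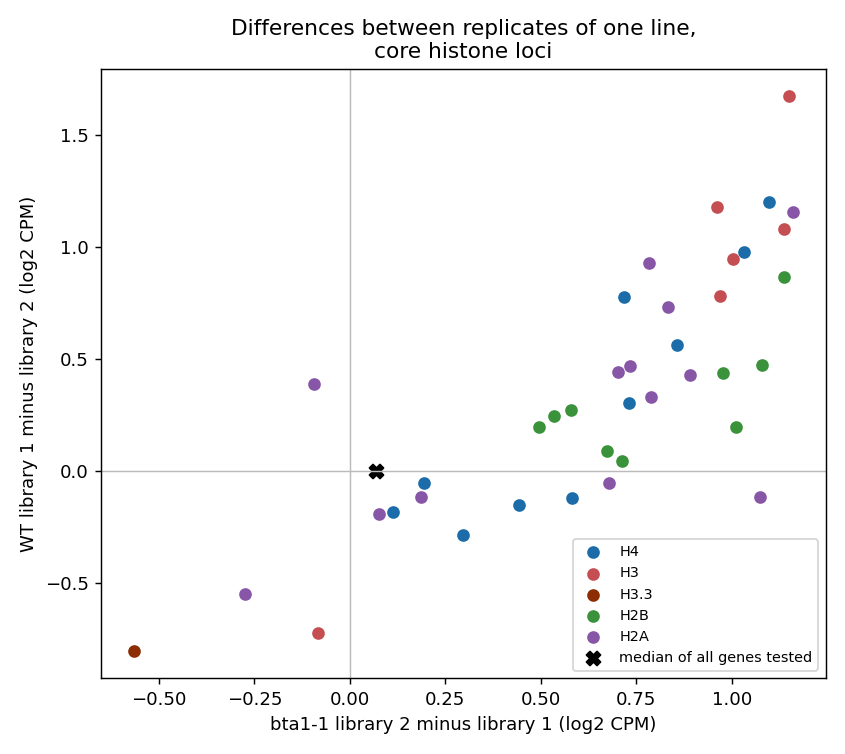
For each tested locus, the difference between the replicates of bta1-1 (x axis, library 2 minus 1) against that of WT (y axis, library 1 minus 2), in log2 CPM, coloured by family. The cross marks the median of all genes tested, near 0 on both axes, and most loci lie to the upper right of it.

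Genes of DNA replication, the process with which most histone synthesis is coupled, were read from a list of 11 loci whose symbols the RefSeq gene table holds on the same chromosome. Of these 5 were called higher and 0 lower by edgeR, beside 2.77% and 2.64% of all genes tested. At an unadjusted p under 0.05 it was 9 and 0, beside 9.68% and 8.16% of all genes. The median log2 fold change was 2.32, and this list too was known from earlier results. Another 5 listed loci were left out for want of such a symbol or place, of which 1 (OS06G0257450, log2 fold change 1.41) was called higher, 3 were not called and 1 was not tested. ORC1, a subunit of the complex that marks replication origins, had 6.35 and 15.6 CPM in bta1-1 against 1.68 and 1.05 CPM in WT, a 7.89-fold rise. MCM3, MCM4 and MCM5, subunits of the replicative helicase, rose by 6.15-fold, 6.88-fold and 6.70-fold, and PCNA, the sliding clamp, by 4.98-fold. MCM2, MCM6, MCM7 and ORC3 were not called, at log2 fold changes of 1.95, 2.07, 1.63 and 2.60. ORC2 (-0.15) and ORC4 (0.11) lay near 0. The count of called members changed with the library left out, as did the count of all genes called. In each of the 5 called genes, bta1-1 library 2 was above library 1 and WT library 1 above library 2, the order seen at the H3 loci that were called.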

How the data were processed

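Libraries of 2 bta1-1 and 2 WT seedling samples were made with the NEBNext Ultra RNA kit, per the labels' protocols. The authors deposited raw read counts for each gene without normalization. FPKM values of the same genes were deposited in a second table, and counts divided by FPKM gave whole gene lengths (within 0.01 base). Per the submitters' processing notes the tools were Bowtie2 2.2.3, TopHat2 2.0.12 and HTSeq 0.6.1, with the rice build IRGSP-1.0; no source used here gives annotation release, strand setting or treatment of reads with several matches, so overlapping genes and near-identical copies are uncertain.

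The test was that of edgeR 4.0.16 under R 4.3.3 (TMM, filterByExpr with minimum count 10 and minimum total 15, robust quasi-likelihood fit, group alone, two-sided, Benjamini-Hochberg adjustment over all genes kept). SE is the log2 fold change over the square root of F. Family sums replaced their loci in a second fit. Within-line differences used log2(CPM + 0.5). The code was tested on simulated data. Alternatives used DESeq2 1.42.0 and limma 3.58.1. Replicates of a line differed beyond counting noise (chi-square per degree of freedom 36.5 in bta1-1, 26.4 in WT). P-values rest on the spread between these samples, with that of each gene drawn towards the trend over all genes kept.

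Members and lists were chosen with earlier results of these data known. Families come from that list of identifiers. The RefSeq gene table (assembly ASM3414082v1) holds no such identifiers. It has H2B symbols for 7, 1 and 1 genes on chromosomes 1, 5 and 8, as many as the list, 1 on chromosome 3, where the list has 0, and none for H2A, H3 or H4. Other symbols were used where that table has them on the same chromosome within about 4 Mb of the place the locus number implies. No genome or sequences were used here. Values in every library are given for the 3 most abundant loci of each family by mean FPKM, H3.3, tested loci not called and the largest and smallest change per family, with further called loci chosen after their values were seen.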

Additional observations from a re-analysis of the deposited data

How the results depend on the processing

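With 25 of 39 loci called higher and a median log2 fold change of 1.47, most settings gave like values. The count was 25 with RLE size factors, beside 655 of all genes called higher, and 30 with DESeq2, beside 1027. Without a filter on low counts it was 31 of 40 loci tested, beside 1582 of 34764 genes. It was 24 and 23 with limma on log2(FPKM + 1) and log2(FPKM + 0.1), beside 645 and 706 genes. With limma on log2(FPKM + 1) over all genes with a value it was 0. In that last fit 44 genes in all were called higher and 125 lower. There 0 replication genes were called, and the sums of H4 (1.53) and H3 (2.25) lost their calls. The 0 stands beside 30 loci higher at an unadjusted p under 0.05 and a median of 1.41, and the cause was not tested. Without 1 library the median ran from 1.11 to 1.75. In these 4 fits the lone library of a line is assumed to vary like the others. Some of the 25 loci lost their call there, as given above by family. The log2 fold change was positive at 34 loci in all 4. No locus was called lower under any setting run, nor lower at an unadjusted p under 0.05.

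The sums ran from 1.24 to 1.76 (H4), 1.52 to 2.42 (H3), 1.04 to 1.81 (H2B), 0.41 to 0.74 (H2A) and -0.59 to 0.20 (H3.3) without 1 library. The H3.3 sum turned to 0.032 without bta1-1 library 2 and 0.20 without WT library 2. Loci that changed sign were OS03G0390600 (-0.60 to 0.20), OS05G0461400 (-0.40 to 0.15), OS04G0450800 (-0.30 to 0.43) and OS03G0743400 (-0.065 to 0.13). The H2B sum was called without a filter (1.47) and with DESeq2 (1.45). All genes called higher numbered 675, and 401 to 1202 without 1 library, 1582 without a filter and 1027 with DESeq2. Those called lower numbered 644, and 482 to 854 without 1 library and 1322 without a filter. LAZY1 ran from -3.03 to -2.84 without 1 library and was -2.54 with limma on log2(FPKM + 1). Replication genes called numbered 5, 3 to 9 without 1 library, and 9 without a filter or with DESeq2.

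Libraries of the lines share replicate numbers, which no label ties to a batch. Same-numbered libraries deviated in opposite directions (r = -0.43 over 24396 genes). With the replicate block, 19 loci were called, the H4 sum (1.48) lost its call, 359 genes were called higher and 415 lower, and 2 replication genes were called. A crossed pairing as a block, chosen after seeing the data, gave 32 loci, 1972 genes higher and 1772 lower, 9 replication genes, and a called H2B sum (1.41). Low counts kept 2 of the 41 loci in the table out of the test.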
